A study of Mus musculus with 2 samples.

Results

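The 34 genes described here encode proteins of the synapse: 13 proteins of synaptic vesicles, 11 of the machinery that releases them, 5 adhesion molecules that bridge the synaptic cleft, and 5 scaffolds of the postsynaptic side. They were taken by symbol from the 55536 genes quantified on the GENCODE M21 annotation, by a rule that uses names and no measured value, and all 34 symbols matched a row in both samples. The vesicle genes were Syt1, Syt4, Syt11, Syn1, Syn2, Syn3, Syp, Sv2a, Sv2b, Sv2c, Rab3a, Rab3b and Rab3c. The release genes were Vamp1, Vamp2, Snap25, Stx1a, Cplx1, Cplx2, Rims1, Rims2, Bsn, Pclo and Unc13a. The adhesion genes were Nrxn2, Nrxn3, Nlgn1, Nlgn2 and Nlgn3, and the scaffold genes were Dlg4, Shank1, Shank2, Shank3 and Homer1.

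A presynaptic terminal stores transmitter in vesicles that dock at the active zone, a protein mesh of RIM, Munc13, Bassoon and Piccolo. Calcium binding to synaptotagmin then triggers fusion through a SNARE complex of VAMP on the vesicle with syntaxin and SNAP-25 on the plasma membrane, and complexins adjust that step. Neurexins on the axon bind neuroligins on the target cell, whose cytoplasmic ends meet PSD-95 (Dlg4), Shank and Homer. Many of these genes are transcribed in young neurons before their axons have formed synapses, and some of the proteins also serve membrane traffic in growing neurites.

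The tissue was hindbrain of healthy B6NCrl mouse embryos of mixed sex at embryonic day 12.5, with no treatment named in the labels. There was 1 group of 2 biological replicates, each a pool of whole dissected tissue: pool 1 came from 120 embryos and pool 2 from 88. PolyA RNA-seq libraries were made from 10 ng of RNA each, and gene counts on M21 came to 31469575 for pool 1 and 29261471 for pool 2. With 1 group there was no contrast to test, so the pools serve as a measure of spread, and values are TPM (transcript abundance corrected for transcript length), given for each pool or as mean ± SD (n = 2). The 34 genes together took 57501 expected counts in pool 1 (0.183% of gene counts) and 56228 in pool 2 (0.192%).

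The dissection was checked against marker genes. All 5 hindbrain markers, 10 of 10 markers of postmitotic neurons (summed 3344 TPM in pool 1 and 3491 in pool 2) and 7 of 7 progenitor markers (2613 and 2407 TPM) were above 1 TPM in both pools. Of 3 astrocyte markers, Gfap was at 0.04 and 0.09 TPM, Aqp4 at 1.85 TPM in each pool and Aldh1l1 at 15.04 and 9.96 TPM. Markers of cranial ganglia and neural crest, whose neurons also express synaptic genes, were present at 8 of 8, with sums of 221 and 237 TPM. Markers of embryonic red cells summed to 11620 and 9121 TPM, and the 6 skeletal muscle markers to 33.99 and 169 TPM, each 2-fold or more higher in pool 2. In bulk tissue, fewer cells of a type and less RNA per cell cannot be told apart.

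Several of the 34 genes make alternative forms that differ by short exons or added bases, and the sequences below are those whose shares are reported further on. They are spliced coding bases of GENCODE M21 transcripts on mm10, 5′ to 3′ on the gene's strand. Snap25 carries a pair of mutually exclusive exons of 118 bases, which lie next to each other at chr2:136769743-136769860 (plus strand, in Snap25-202) and chr2:136770057-136770174 (plus strand, in Snap25-201); capitals mark the 31 bases that differ between them.
Snap25 upstream exon: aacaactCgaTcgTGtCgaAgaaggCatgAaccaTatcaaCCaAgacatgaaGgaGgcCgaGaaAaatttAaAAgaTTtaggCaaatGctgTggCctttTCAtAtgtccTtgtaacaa
Snap25 downstream exon: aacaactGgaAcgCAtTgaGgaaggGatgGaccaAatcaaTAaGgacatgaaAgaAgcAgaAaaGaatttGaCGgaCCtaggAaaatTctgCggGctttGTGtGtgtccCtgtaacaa
In the following sequences capitals mark bases present in only some transcripts, and lower case the flanking exon bases.
Stx1a, 83 bases added at the start of an exon (chr5:135048911-135048993, plus strand): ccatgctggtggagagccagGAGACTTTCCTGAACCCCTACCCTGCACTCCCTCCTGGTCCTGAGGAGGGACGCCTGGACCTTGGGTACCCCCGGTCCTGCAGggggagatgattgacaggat
Syn1, 38 bases added at the start of the last exon (chrX:20861572-20861609, minus strand): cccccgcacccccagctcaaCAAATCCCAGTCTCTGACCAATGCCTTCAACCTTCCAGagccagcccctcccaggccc
Nlgn1, 60-base exon (chr3:25920178-25920237, minus strand): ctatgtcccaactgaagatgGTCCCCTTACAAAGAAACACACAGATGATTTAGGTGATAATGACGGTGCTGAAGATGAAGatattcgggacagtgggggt
Nlgn1, 27-base insert (chr3:25439865-25439891, minus strand): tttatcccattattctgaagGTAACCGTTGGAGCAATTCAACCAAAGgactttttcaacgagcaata
Nlgn3, upstream 60-base exon (chrX:101303072-101303131, plus strand): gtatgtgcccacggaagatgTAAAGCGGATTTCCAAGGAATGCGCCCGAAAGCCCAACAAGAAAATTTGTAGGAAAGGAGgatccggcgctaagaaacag
Nlgn3, downstream 60-base exon (chrX:101307075-101307134, plus strand): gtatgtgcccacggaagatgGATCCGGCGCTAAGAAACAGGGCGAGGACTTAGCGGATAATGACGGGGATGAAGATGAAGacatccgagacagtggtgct

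All 34 genes reached 1 TPM in both pools, a level that 61.8% of all 22028 protein-coding genes and 29% of all 55536 genes reached. At 10 TPM or more in both pools stood 22 of the 34 (64.7%), against 68.5% of the 13619 protein-coding genes above 1 TPM, a share near the background. The median of the 34 was 17.3 ± 0.502 TPM, below the median of 21.79 TPM of those protein-coding genes. By class, the medians were 33.0 ± 1.88 TPM for vesicle genes, 17.1 ± 0.849 for adhesion genes, 11.6 ± 1.16 for release genes and 9.75 ± 0.219 for scaffold genes, and the pools gave the same order. Medians were also taken on transcripts that encode nearly the whole protein (defined below). They were 31.5 TPM for vesicle, 8.70 for release, 8.66 for adhesion and 4.29 for scaffold genes. The order of release and adhesion genes is not resolved there. Rims2 and Nrxn3, their median genes, were at 8.72 and 8.53 TPM in pool 1 and 8.68 and 8.79 in pool 2. Within each class the genes spread far more than the pools did: vesicle genes ran from 2.13 to 119 TPM, release genes from 3.40 to 115 TPM, adhesion genes from 7.45 to 42.7 TPM and scaffold genes from 2.72 to 19.8 TPM, so the class ranges overlap.

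**Figure D1:**
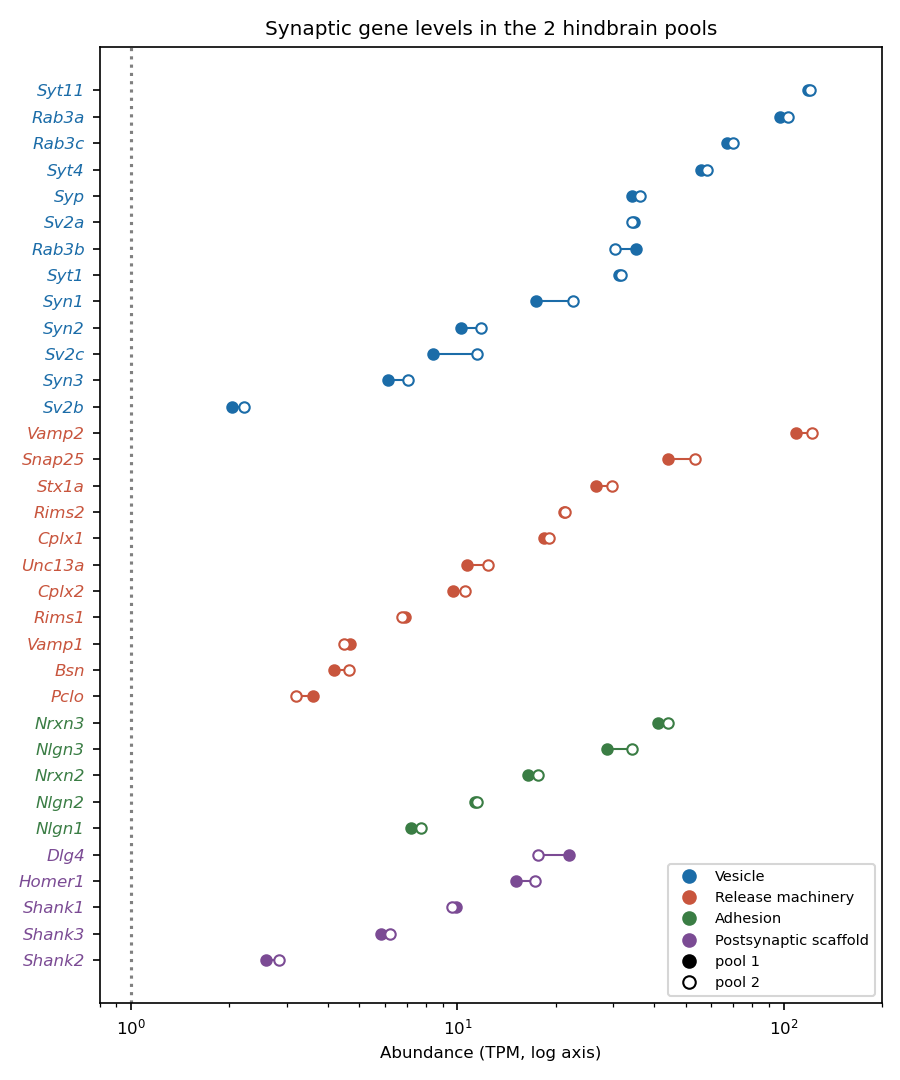
Abundance in TPM (log axis) of the 34 genes in pool 1 (filled) and pool 2 (open), grouped by class and sorted by mean within a class; the dotted line marks 1 TPM. All points lie to the right of 1 TPM, from Sv2b at 2.04 and 2.21 TPM to Syt11 at 118 and 121 TPM.

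Among the vesicle genes, synaptotagmins and Rab3 GTPases led. Syt11 (ENSMUSG00000068923.14), a synaptotagmin that does not bind calcium and acts in endocytosis and vesicle traffic, was the highest of all 34 genes, with 118 TPM in pool 1 and 121 in pool 2. Rab3a, the main vesicle-bound Rab GTPase of mature synapses, measured 97.4 and 103 TPM. Rab3c, a close relative, measured 67.2 and 69.7 TPM, and this value depended on the annotation (given below). Syt4, another synaptotagmin of low calcium affinity, measured 55.6 and 58.2 TPM. Syt1, the calcium sensor of fast release, was lower, at 31.2 and 31.7 TPM. The gap between Syt11 and Syt1, 3.80-fold as a mean over the pools, was far wider than the pools' spread in either gene.

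Synaptophysin, an abundant vesicle membrane protein encoded by Syp, stood at 34.3 and 36.2 TPM. Sv2a, a vesicle glycoprotein and the binding site of levetiracetam, stood at 34.7 and 34.2 TPM, and Rab3b at 35.3 and 30.3 TPM. The values of Rab3b spanned those of Sv2a and Syt1, so its place beside them is not resolved, whereas Sv2a was above Syt1 in each pool. Syn1, the synapsin that tethers vesicles to each other and to actin, measured 17.4 TPM in pool 1 and 22.6 in pool 2. Syn2 was at 10.3 and 11.8 TPM, and Syn3, the synapsin known from early neuronal development, was the lowest of the synapsins at 6.12 and 7.04 TPM. The remaining SV2 glycoproteins were low: Sv2c measured 8.41 and 11.5 TPM, and Sv2b, the lowest of the 34 genes, 2.04 and 2.21 TPM.

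Of the release genes, the 3 SNARE genes of the neuronal fusion complex had the highest total TPM. Vamp2, the vesicle SNARE of forebrain and most central synapses, measured 109 TPM in pool 1 and 122 TPM in pool 2. Its relative Vamp1, which is known from brainstem and spinal motor circuits of older animals, measured 4.67 and 4.50 TPM. Vamp2 thus held 96.2% ± 0.406 of the TPM of this pair. Snap25 measured 44.1 and 53.5 TPM, and Stx1a, the plasma membrane syntaxin, 26.6 and 29.7 TPM; the pools' values of these 3 SNARE genes did not overlap with each other. Cplx1 was at 18.4 and 19.1 TPM and Cplx2 at 9.66 and 10.6 TPM, both complexins that clamp and promote fusion. On near-full coding transcripts (defined below) Stx1a was at 10.0 and 15.6 TPM, below Cplx1, whose TPM was all on such a transcript.

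The active zone genes were lower than Vamp2, Snap25 and Stx1a. Rims2, a scaffold that links vesicles to calcium channels, was the highest of them, at 21.3 TPM in each pool, and Rims1 was at 6.90 and 6.77 TPM. Unc13a, which encodes the priming factor Munc13-1, was at 10.7 and 12.4 TPM. The giant scaffold genes Bsn (Bassoon, 4.19 and 4.65 TPM) and Pclo (Piccolo, 3.60 and 3.20 TPM) were low as well; Pclo was the lowest release gene in each pool, and the values of Bsn and Vamp1 overlap. These levels are per transcript length, and in counts, which longer RNAs gather in larger number, Pclo exceeded Bsn, with Bsn at 46.5% of the pair's counts against 56.5% ± 3.85 of its TPM. On near-full coding transcripts (defined below) Pclo was at 2.62 and 2.82 TPM. That was above Bsn (1.33 and 1.89 TPM) and Rims1 (1.70 and 1.28 TPM).

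Both partners of the trans-synaptic bridge, neurexins and neuroligins, were present. Of the presynaptic genes listed, Nrxn3 was the higher, with 41.1 TPM in pool 1 and 44.3 in pool 2, and Nrxn2 measured 16.5 and 17.7 TPM. Of the neuroligins, Nlgn3, which occurs at both excitatory and inhibitory synapses, measured 28.7 and 34.2 TPM. Nlgn2, the neuroligin of inhibitory synapses, measured 11.4 and 11.5 TPM, and Nlgn1, that of excitatory synapses, 7.18 and 7.72 TPM. Nlgn3 held 62.4% ± 2.36 of the TPM of the 3 neuroligins and was above the other two in each pool.

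Among the listed genes, the postsynaptic scaffold genes had the lowest class median. Dlg4, which encodes PSD-95, measured 22.0 TPM in pool 1 and 17.6 TPM in pool 2, and Homer1, which links Shank to metabotropic glutamate receptors, 15.1 and 17.3 TPM. In total TPM Dlg4 was above Homer1 in each pool, narrowly so when the pool 2 value of each is compared. On near-full coding transcripts (defined below) Homer1 was the higher in each pool, with a mean of 10.4 TPM against 4.29 for Dlg4. On the older GENCODE M4 annotation (given below) Dlg4 was the higher in pool 1 only. In pool 2 it was at 17.6 TPM there, and Homer1 at 18.3. Shank1 was at 9.90 and 9.59 TPM, Shank3 at 5.82 and 6.21 TPM and Shank2 at 2.59 and 2.84 TPM, and the order of the 3 Shank genes was the same in each pool. For Dlg4 the log2 ratio of pool 2 to pool 1 was -0.32 in TPM and -0.13 in scaled counts, and the effective length assigned to the gene was 2612 bases in pool 1 and 3015 in pool 2.

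Close relatives outside the list showed which family member was the most abundant in this tissue. Of 94 further synaptic genes, 89 were above 1 TPM in both pools, with a median of 12.3 TPM over all 94. By class, the relatives' medians were 9.97 TPM for vesicle, 15.5 for release, 9.54 for adhesion and 15.7 for scaffold genes. The class order of the listed genes thus did not hold among their relatives, where scaffold genes had the highest median. Among vesicle relatives 20 of 21 were above 1 TPM in both pools. They were led by Dnajc5 (cysteine string protein, a chaperone of SNAP-25) at 115 ± 1.67 TPM, Scamp1 at 62.2 ± 2.06 TPM and the transporter-like vesicle protein gene Svop at 43.1 ± 0.00707 TPM. Among the other synaptotagmins Syt13 (25.8 ± 0.693 TPM) and Syt5 (25.5 ± 0.304 TPM) came nearest to Syt1, and Syt10 was under 1 TPM in both pools, at 0.43 and 0.62 TPM. Syt2, the calcium sensor of many mature hindbrain synapses, was at 3.34 ± 0.219 TPM, below Syt1 in each pool. Rab3d was at 12.3 ± 0.346 TPM, below the other three Rab3 genes.

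Among 29 release genes, 25 passed 1 TPM in both pools, with Snap47 (181 ± 4.12 TPM) and Napa (alpha-SNAP, 144 ± 3.66 TPM) the highest. Snap47, Vamp3 (66.3 ± 0.127 TPM), Vamp4 (55.2 ± 3.15 TPM), Snap23 (30.9 ± 0.877 TPM) and Snap29 (15.5 ± 0.212 TPM) belong to SNAREs that serve membrane traffic in many cell types. In the Munc13 family the more widely expressed Unc13b (22.0 ± 1.03 TPM) was above Unc13a, and Unc13d (1.24 ± 0.0636 TPM) and Unc13c (0.740 ± 0.212 TPM) were low. Of the small RIM genes, Rims3 (7.16 and 6.53 TPM) spanned the values of Rims1, and Rims4 (4.29 ± 0.0424 TPM) was below it. This order is of totals. On near-full coding transcripts (defined below) Rims1 was at 1.70 and 1.28 TPM, below both. Such transcripts took 90.0% of the TPM of Rims3 and 100% of that of Rims4. The retinal complexin gene Cplx4 was at 0 in both pools (3 counts would give up to 0.152 TPM), and Cplx3 measured 0.21 and 0.06 TPM.

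All 24 further adhesion genes passed 1 TPM in both pools. The receptor phosphatase genes Ptprs (247 ± 3.99 TPM) and Ptprf (104 ± 3.95 TPM), which bind several postsynaptic adhesion proteins and also act in axon growth, and the calsyntenin gene Clstn1 (105 ± 2.29 TPM) were the highest. All 20 further scaffold genes also passed 1 TPM in both pools, led by Dlgap4 (161 ± 6.46 TPM), Lin7c (130 ± 8.44 TPM) and Homer3 (62.4 ± 0.170 TPM). These are totals over all transcripts, of which those encoding nearly the whole protein took 2.09% for Dlgap4 and 19.2% for Ptprs, against 94.4% for Lin7c and 91.1% for Clstn1, so the ranking by total does not carry over to them. Homer3 was 1 of 2 relatives above Homer1, the other being Homer2 (24.7 ± 3.12 TPM). Dlg1 (SAP97, found in many epithelia too) was at 21.6 and 20.7 TPM, a range that overlaps that of Dlg4, with Dlg3 at 12.7 and 11.3 TPM and Dlg2 at 5.35 and 4.52 TPM below. The overlap of Dlg1 and Dlg4 is of totals. Transcripts encoding nearly the whole protein took 51.5% for Dlg1 and 21.7% for Dlg4.

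**Figure D2:**
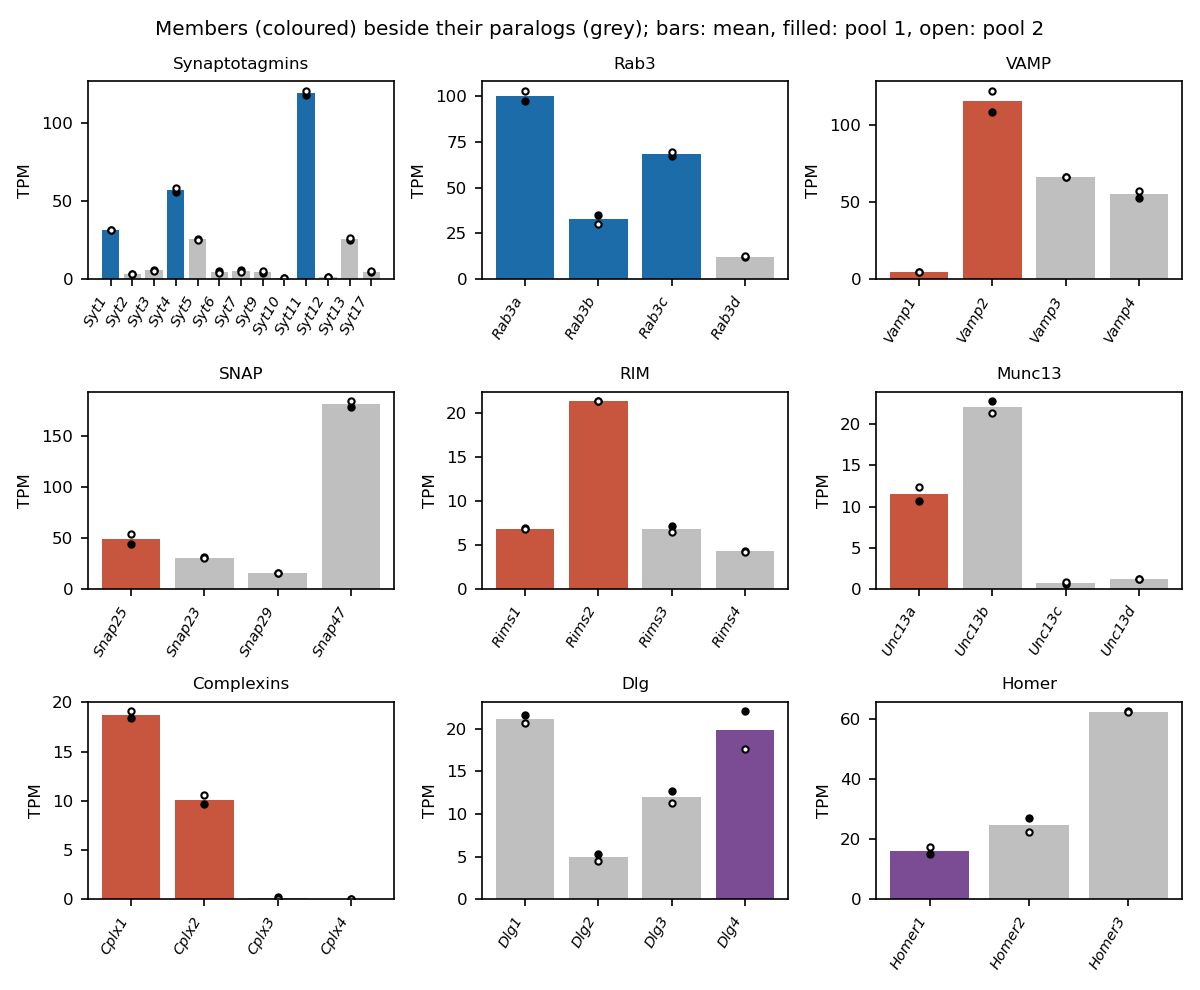
Abundance in TPM (linear axis from 0) of listed genes (coloured by class) and their relatives (grey) in 9 families; bars are means, filled points pool 1 and open points pool 2. Vamp2, Rims2 and Cplx1 are the tallest bars of their families, whereas Snap25, Unc13a, Homer1 and Dlg4 each have at least 1 relative of higher mean.

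The pools were close for these genes. Of the 34, 0 differed 2-fold or more in TMM-scaled counts, against 0.994% of the 14989 genes with 50 or more mean counts, and 0 differed 1.5-fold, against 3.42%. All 34 passed the count minimum, with 196 to 8366 counts each per pool. Towards pool 2, 2 genes (5.88%) were 1.2-fold or more higher, against 8.05% of genes, and 0 were towards pool 1, against 8.11%. These were Sv2c, with a log2 ratio of 0.44 (95% counting interval 0.31 to 0.58, 1.36-fold), and Syn1, with 0.36 (0.24 to 0.48, 1.28-fold). The intervals cover counting error alone, since no molecular identifiers are mentioned.

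At the other end, Rab3b and Rims1 had the lowest ratios, each -0.17. The counting interval left out equality for 12 of the 34 genes (35.3%), against 35% of all genes, so the genes varied between the pools about as others did. The median absolute log2 ratio was 0.09 for the 34 genes and 0.10 for all. Higher in pool 2 by any amount were 23 of 34 genes (67.6%, against 50.6%), a count that fell to 1 of 34 when spike-in totals set the scale, which shifted the median of all genes to -0.37. Of the 94 relatives, 45 of the 89 with enough counts were higher in pool 2. The median log2 ratio was 0.10 for the neuron markers and 0.10 for the ganglion markers, close to the median of 0.06 of the 34 genes. It was -0.09 for the progenitor markers, 0.40 for the hindbrain markers and 2.34 for the skeletal muscle markers. For the red cell markers it was -0.33, and for the 2 astrocyte markers with enough counts -0.23. The part of these cell types in the result was not tested.

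**Figure D3:**
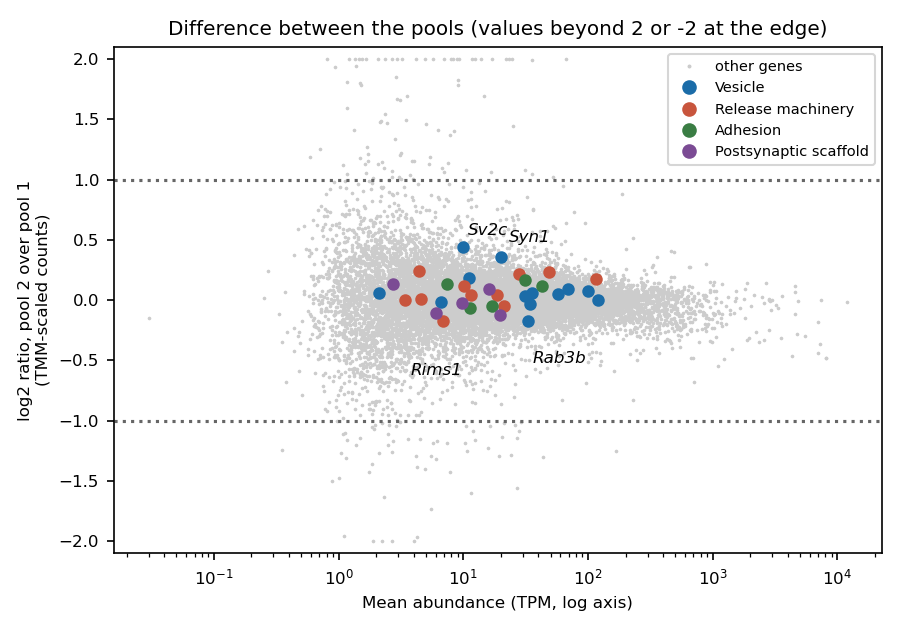
log2 ratio of pool 2 over pool 1 (TMM-scaled counts) against mean abundance (TPM, log axis) for the 34 genes (coloured by class) and all other genes with 50 or more mean counts (grey); dotted lines mark 2-fold, and grey points more than 2 from 0 in either direction are drawn at the edge. The coloured points lie between -0.17 and 0.44, inside the 2-fold lines.

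Gene totals in these tables sum transcripts of different kinds. For several synaptic genes a large part came from transcripts that encode a shorter or incomplete protein, or none. Near-full coding transcripts are here those annotated as complete, with a coding sequence at least 80% as long as that of the gene's principal transcript. Complete coding forms that are shorter, as in Nrxn2, Nrxn3, Homer1 and Shank2, fall outside this measure, so a low share is not a lack of coding RNA. Their median share of gene TPM was 89.3% in vesicle genes, 80.4% in release genes, 62.3% in adhesion genes and 22.2% in scaffold genes. Their share was under 50% in 10 of the 34 genes. Among the 21 of them with several transcripts and 10 TPM or more, it was under 50% in 5 (23.8%), against 21.5% of 8689 protein-coding genes chosen in the same way, so the list as a whole was near the background.

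The individual cases were large. Nrxn3-205, the only complete Nrxn3 form of protein-coding type with a coding sequence over 4000 bases, took 20.7% and 19.8% of the gene, whereas Nrxn3-204, a retained intron transcript, took 48.6% and 46.0%. For Nrxn2, coding forms over 4000 bases took 20.5% and 20.3%, and a processed transcript of 576 bases (Nrxn2-213) 36.03% and 36.28%. For Dlg4, near-full coding forms took 20.9% and 22.5%, and Dlg4-214, with 819 coding bases and a last exon of 5652 bases, 26.8% and 31.6%. For Shank3, an incomplete annotation of 719 bases (Shank3-207) took 65.5% and 59.5% and the full-length Shank3-201 24.4% and 20.1%. In reads the order is the other way for Shank3, Nrxn2 and Nrxn3. Shank3-207 had 47.1 and 42.3 expected counts and Shank3-201 199.5 and 161.6. Nrxn2-213 had 56.5 and 56.3 and Nrxn2-205 368 and 348, and Nrxn3-204 had 870 and 818 and Nrxn3-205 1332 and 1266. For Dlg4 the order stayed the same, with 735 and 639 counts on Dlg4-214. Dlg4-201, its near-full form with the most counts, had 97.8 and 94.6. Shares in TPM weigh short transcripts up, and those of Shank3-207 and Nrxn2-213 rest on few reads. Shank2 was mostly on Shank2-205, a form that starts inside the gene and has a complete coding sequence of 3786 bases. The near-full form of Shank2 had 0.24 and 0.30 TPM. Counting near-full forms alone, 33 of the 34 genes (97.1%) reached 1 TPM in both pools, against 94.7% of the 13619 protein-coding genes above 1 TPM, and Shank2 did not.

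**Figure D4:**
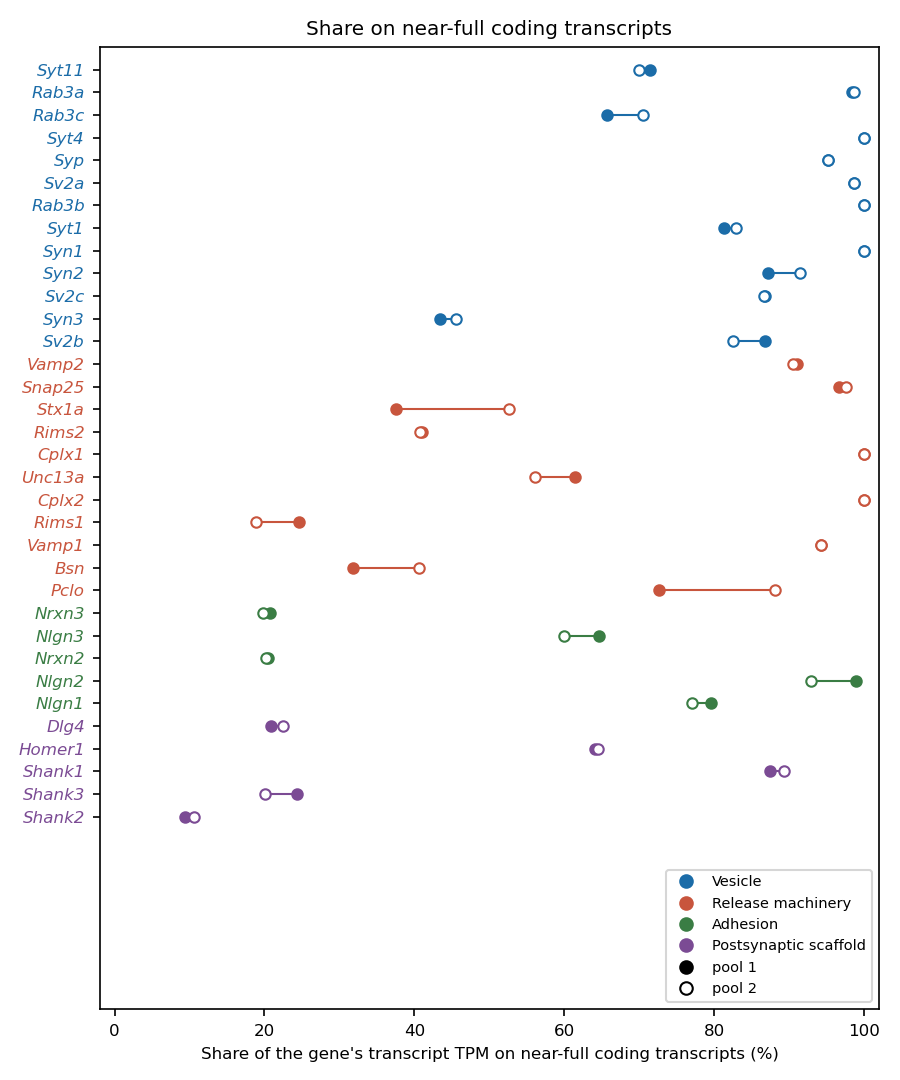
Share in percent of each gene's transcript TPM on near-full coding transcripts, in pool 1 (filled) and pool 2 (open), in the same gene order as the plot of abundance. Most vesicle genes lie above 80%, whereas Rims1, Nrxn2, Nrxn3, Dlg4, Shank2 and Shank3 lie under 25% in both pools.

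Which transcript was the most abundant was the same in both pools for 31 of 34 genes, the exceptions being Stx1a, Sv2b and Syn1. Among the 21 with several transcripts and 10 TPM or more there were 19 (90.5%), against 93.4% of 8689 genes chosen in the same way. The top transcript held under 60% of the gene in 18 of 34 genes, and in 12 of these 21 (57.1%), against 42.9% of the 8689 genes. Syt4 and Cplx2 have a single annotated transcript.

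Snap25 was dominated by Snap25-201, which carries the downstream exon of the pair, at 89.3% in pool 1 and 88.7% in pool 2. Snap25-202, with the upstream exon, held 7.26% and 8.86%. The upstream exon is the 5a exon known from early brain and the downstream exon the 5b exon that prevails in the adult. The transcripts also differ at the 3′ end, with last exons of 1354 bases in Snap25-201 and 277 bases in Snap25-202, so reads in the longer end can only be given to Snap25-201 whichever exon the RNA holds. The part of this difference in the shares was not tested.

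Stx1a and Syn1 were divided between forms that share nearly the same last exon. For Stx1a, transcripts with the 83 added bases took 43.0% in pool 1 and 33.4% in pool 2; the main one, Stx1a-204, is annotated as a target of nonsense-mediated decay, and its stop lies shortly after the added bases. The standard coding form Stx1a-201 took 37.6% and 52.6%. For Syn1, the form with the 38 added bases (Syn1-201) took 43.97% and 59.17% and the form without them (Syn1-202) 56.0% and 40.8%. In both genes the order of the forms reversed between the pools, so neither order is resolved.

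The neuroligin inserts lie in the extracellular domain that binds neurexins. For Nlgn1, the form with both inserts (Nlgn1-205) took 40.4% and 42.2% and the form with neither (Nlgn1-203) 39.1% and 34.8%; M21 has no coding Nlgn1 form with only 1 of the inserts. These forms have last exons of 8246 and 1030 bases. For Nlgn3, forms with the downstream exon alone took 60.6% and 53.9%, the form with both 60-base exons 4.05% and 6.02%, and forms with neither, mainly an incomplete one, 35.4% and 40.1%. The downstream exon thus stood above the double insert in each pool. Homer1 was mostly on long coding forms, at 64.1% and 64.5%, which hold the coiled coil that joins Homer proteins. Its short coding forms took 35.9% and 34.2%.

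The same reads were also quantified on the older GENCODE M4 annotation, and 2 of the 34 genes (5.88%) differed 1.5-fold or more in TPM between annotations, against 6.48% of 15185 genes. Rab3c was at 68.5 ± 1.76 TPM on M21 and 21.7 ± 1.40 TPM on M4, a ratio of 0.317. M4 has 1 Rab3c transcript and M21 has 5, and 87.1% and 86.1% of the M21 value was on transcripts absent from M4. Rims2 was at a ratio of 0.596, with 2 transcripts on M4 and 12 on M21. Rims1, at 0.669, was just inside the limit. The M4 transcript of Rab3c has an effective length of 8401 bases, and Rab3c-202, the top M21 form, is 2398 bases long. On M4, Rab3a held 65.2% of the TPM of the 3 Rab3 genes, against 49.7% ± 1.41 on M21, and it led on both.

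Counts and TPM moved apart for some genes. Dlg4 kept 0.970 of its TPM on M4 with about 0.40 of its counts, and Sv2c 0.920 of its TPM with about 0.65 of its counts. Leaving out Rab3c and Rims2, the median TPM ratio of the other 32 genes was 1.05, as it was over all genes.

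**Figure D5:**
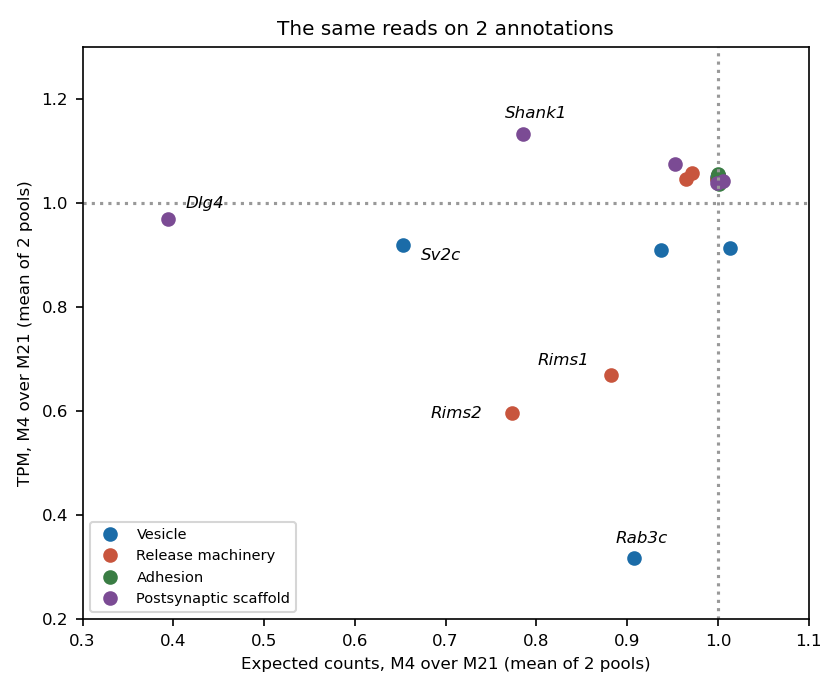
Ratio of the M4 to the M21 value for each of the 34 genes, with expected counts on the horizontal and TPM on the vertical axis (linear, means of both pools, coloured by class). Most genes lie near 1 on both axes; Rab3c lies at 0.317 and Rims2 at 0.596 of their M21 TPM, and Dlg4 is lowest in counts.

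Of the 34 genes, 17 (50%) share exonic bases with another annotated gene, as do 37% of the 13619 protein-coding genes above 1 TPM. Use of strand in counting was not given in the sources used here. Reads over shared bases may therefore not be fully told apart, and their part in the values was not tested. The widest such overlap with a gene above 1 TPM in both pools was that of Syn3 with Timp3, which lies on the other strand inside Syn3, shares 1733 exonic bases with it and was at 34.1 ± 1.89 TPM. Unc13a shares 495 bases with Colgalt1 (51.1 and 48.9 TPM), Nrxn2 shares 207 with the antisense gene Gm14964 (9.15 ± 1.34 TPM), Rab3a shares 29 with Mpv17l2 (29.5 ± 0.247 TPM) and Syn1 shares 9 with Araf (119 ± 0.212 TPM). Syn3 was also the only member whose deposited posterior SD of the count passed 1% of the count, and for Rab3a and Syn1 that SD was 0 in both pools.

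Many synaptic genes are known targets of REST, a repressor that binds the RE1 element and keeps neuronal genes silent in other cells and in progenitors. Rest itself measured 22.25 and 21.4 TPM. RefSeq promoter windows (GRCm38.p6, 250 bases before to 50 after a start) matched 25 of the 34 genes, with 37 windows. The RE1 consensus, 21 bases long and searched on both strands with at most 1 mismatch in its 18 fixed letters, was in 5 of all 32851 windows (0.0152%). A Syn1 window held 1 of them, 232 to 212 bases before the RefSeq start at chrX:20921130-20921150 on the minus strand, shown with the match in capitals.
Syn1 promoter: cggaTTCAGCACCGCGGTCAGAGCCttcgc
No other member window came closer than 4 mismatches. The median ratio of observed to expected CpG was 0.612 in member windows and 0.384 in all windows, and TATAAA, on either strand, was in 3 of 37 member windows (8.11%) and 13.6% of all windows. These are matches of letters and show no binding.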

How the data were processed

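PolyA RNA-seq was analysed in 2 pools of embryonic hindbrain, the replicates of 1 group. The gene and transcript tables deposited by the authors were made on mm10 with GENCODE M21 and, separately, M4, per the deposited read-me files. Not given in the sources used here are the aligner, the counting program and its use of strand. Expected counts, as deposited, are estimates of reads per feature with no correction for depth. TPM, as deposited, is corrected for effective length and shared out among genes, tRNA entries and spike-ins alike. The deposited FPKM values were used as an alternative scale, and the deposited isoform percent as an alternative to shares computed from transcript TPM. The posterior SD of counts was deposited by the authors as an estimation error.

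Gene symbols came from the GENCODE M21 annotation. Expected counts were rounded for edgeR 4.0.16, whose TMM factors scaled the ratios of pool 2 to pool 1 (prior count 0.5, 50 or more mean counts). The counting interval is an exact (Clopper-Pearson) 95% interval of a member's counts in the pools and covers counting error only. The ratio was tested on simulated data. Alternatives were size factors of DESeq2 1.42.0, spike-in totals, total counts, M4, other thresholds and leaving out each pool. Library totals were 32547453 and 30559014 expected counts, of which spike-ins took 3.31% and 4.25%. Scripts ran in R 4.3.3 and Python 3.11.15 with scipy 1.17.1, pandas 2.3.3 and matplotlib 3.10.9.

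The members, their classes, the relatives and the marker lists were chosen with earlier results of these data known. The rule itself picks members by name and uses no measured value. Named were all members, of each list of relatives the 3 of highest mean TPM and up to 2 under 1 TPM in both pools, and family partners; some genes that this rule names are not reported here. The near-full coding measure and the genes singled out for their transcripts were chosen after their values were seen. No p-values were computed, since there was no second group.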

Additional observations from a re-analysis of the deposited data

How the results depend on the processing

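No paired analysis was possible because both pools belong to 1 group. Leaving out each pool in turn gave class medians of 31.7 to 34.3 TPM for vesicle, 10.7 to 12.4 for release, 16.5 to 17.7 for adhesion and 9.59 to 9.90 for scaffold genes, 18 to 19 genes with a top transcript under 60%, and 2 to 3 genes apart between annotations, the third being Rims1. All 34 genes stayed above 1 TPM in both pools on M4, in FPKM and with TPM rescaled to genes only, and 29 passed 5 TPM. Rescaling to genes only raised the medians to 36.3 (vesicle), 12.7 (release), 18.8 (adhesion) and 10.7 TPM (scaffold), as spike-ins and tRNA entries leave the total. In FPKM they were 20.1, 7.02, 10.4 and 5.93. On M4 the adhesion median was 18.0 TPM and the scaffold median 11.0 TPM. Near-full coding transcripts alone were a setting chosen after seeing the data. The medians there were 8.70 TPM for release, 8.66 for adhesion and 4.29 for scaffold genes. The order of release and adhesion genes then differed between the pools. Spike-in totals moved the median log2 ratio of the pools to -0.32, with Sv2c alone above 0. At a 2-fold limit 1 gene differed between annotations, Rab3c. The top transcript held under 60% in 12 genes when shares were taken from transcript counts. By counts rather than TPM, the leading member changed in 3 families: Rab3c led the Rab3 genes, Cplx2 the complexins and Pclo the pair with Bsn.

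Transcript shares are estimates from short reads of oligo-dT primed, amplified cDNA, and depend on which 3′ ends the annotation lists. With 2 pools, the SD rests on 1 degree of freedom. Estimates for Sv2b, Vamp1 and Shank3 rest on the fewest counts.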
